A study of Arabidopsis thaliana with 18 samples.

Results

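The 7 genes described here were grouped as core genes of the plant circadian clock. Each was read from 1 probe set given by its identifier. They were CCA1 (AT2G46830, 266719_at), LHY (AT1G01060, 261569_at), RVE1 (AT5G17300, 250099_at), GI (AT1G22770, 264211_at), ELF4 (AT2G40080, 267364_at), TOC1 (AT5G61380, 247525_at) and PRR5 (AT5G24470, 249741_at), out of 22746 probe sets tested. The platform's gene table used here lists 1 of the 7, GI, and the other 6 were named by probe set. The plants were Arabidopsis thaliana, wild type Col-0, 5 to 6 weeks old, with no treatment or mutant in the series. Each sample pooled 15 whole rosettes. Rosettes were taken at 0, 4, 8, 12, 16 and 20 h, and each time has 3 arrays, 1 from each of 3 separate growths of plants (series A, B and C, after the replicate letters). The labels used here do not say when the light came on, so times are given as labelled. Levels are given as linear signal, and differences on the scale log2(signal + 1.1).

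The clock is a loop of genes that switch each other off at different times of day. CCA1 and LHY are closely related MYB transcription factors, made around dawn, that repress genes of the evening. Their targets include TOC1 and PRR5, pseudo-response regulators that in turn repress CCA1 and LHY, and ELF4, which works with ELF3 and LUX in the evening complex. GI steadies the F-box protein ZTL, which marks TOC1 and PRR5 proteins for breakdown. RVE1 is a MYB factor of the same family as CCA1 and LHY that carries clock timing to auxin synthesis. It is kept in the group although this role lies downstream of the loop.

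The leaf genes on the arrays gave high signals in a rosette sample. RCA, the activase of Rubisco, read between 2816.6 and 7780.1 over the 18 arrays, while the root genes PYK10 and EXPA7 read between 127.4 and 266.1 and between 1.7 and 19.2. Array medians ran between 32.2 and 39.9 over all probe sets. Series C stood apart in its ubiquitin control, whose 3'/5' signal ratio was 3.16 to 4.55, against 1.86 to 2.21 in series A and 1.97 to 2.33 in series B. The bioC spike control read 472 to 622 in series C, against 148 to 164 in series A and 142 to 162 in series B. Every series holds every time, so these offsets were not aligned with time.

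Before any comparison, 4 arrays of series B stood apart in these genes, and the pattern was not confined to them. The leaf gene LHCB4.2, for example, read 1122.6 at 4 h and 4016.4 at 16 h in series B. In series A it read 3680.2 and 970.4 at those times, and in series C 5825.8 and 831.7. Genes outside the 7 were not counted in this way. On the array labelled 16 h B, all 7 genes lay closer to the mean of series A and C at 4 h than at 16 h. On the array labelled 4 h B, 6 of 7 lay closer to 16 h than to 4 h, RVE1 being the exception. On the array labelled 8 h B, 6 of 7 lay closer to 12 h, with ELF4 as the exception, and on that labelled 12 h B, 5 of 7 lay closer to 8 h, with CCA1 and TOC1 as exceptions. The same count was made between series A and C. There, 0 or 1 of 7 genes lay closer to the other time for 4 h and 16 h, and that 1 gene was RVE1. For 8 h and 12 h, 2 to 4 of 7 did so, and CCA1, LHY, RVE1, ELF4 and TOC1 were each among them at least once. The exceptions named above therefore do not show that a gene kept its labelled time. By gene counts 8 h B and 12 h B stood apart less clearly. The root mean square distance over the 7 genes was 0.55 from the array labelled 16 h B to series A and C at 4 h, but 3.34 to their own-labelled 16 h. For 4 h B it was 0.91 to 16 h and 3.73 to 4 h, for 8 h B 0.82 to 12 h and 1.78 to 8 h, and for 12 h B 0.38 to 8 h and 1.5 to 12 h. The other two arrays of series B, 0 h and 20 h, were closest to their own time, at 0.55 and 0.56, and by this distance so was every array of series A against series C. Why these 4 arrays stood apart was not tested, and all arrays keep their labels here. Results are given with all 18 arrays and, where they differ, without these 4. Since the arrays were left out for values that include those of the 7 genes, the smaller p-values obtained without them are a description and not independent support.

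**Figure D1:**
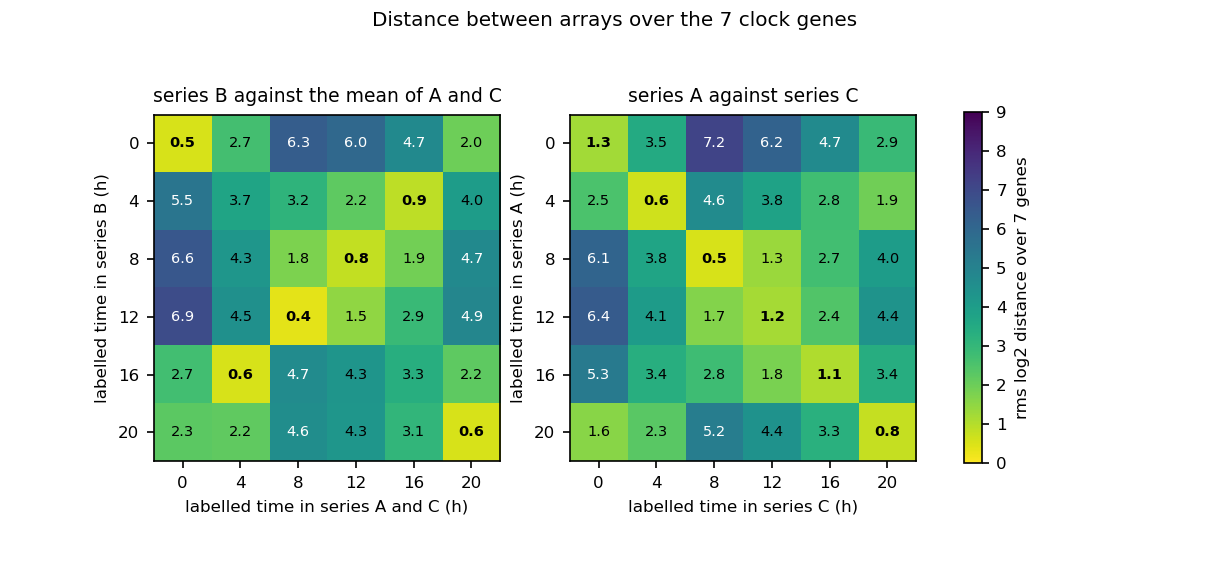
Root mean square distance on the log2 scale over the 7 clock genes, between arrays of series B and the mean of series A and C (left) and between series A and series C (right), with labelled times in h on both axes and the closest time of each row in bold. Series A is closest to series C at each own time, with 0.53 at 8 h, whereas the rows 4, 8, 12 and 16 h of series B are closest to 16, 12, 8 and 4 h.

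CCA1, LHY and RVE1 were at their highest at 0 h and at their lowest at 8 or 12 h in every series. CCA1 in series A read 846.4 at 0 h, 200.1 at 4 h, 4.5 at 8 h, 1 at 12 h, 1.2 at 16 h and 313.8 at 20 h. CCA1 in series C read 1018.9, 181.7, 2.4, 6.8, 11.8 and 108.3 at the same times. CCA1 in series B read 830.5, 1.2, 0.9, 1.3, 223.6 and 110.2. The 0 h arrays stood above all others without overlap, and in series B the 4 h and 16 h arrays held the low and the high value that the other series showed at 16 h and 4 h. At 8 h and 12 h the CCA1 signals were below 7.1, the 25th percentile of all values in the table. No detection call was available there to say whether the transcript was present. In whole rosettes, fewer cells that express a gene and less of its RNA per cell cannot be told apart.

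LHY followed the same course. LHY in series A read 1918.9, 221.7, 15, 3.9, 8.8 and 883.6 at 0, 4, 8, 12, 16 and 20 h. LHY in series C read 2890.3, 190.3, 17, 15.9, 16.1 and 567.3. LHY in series B read 1880.3, 2.5, 1.9, 14.2, 205.2 and 616.2. At 20 h, LHY was back at 46.0%, 32.8% and 19.6% of its own maximum in series A, B and C. CCA1 was back at 37.1%, 13.3% and 10.6% of its own at that time, a smaller share in each of the 3 series.

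RVE1 had closely matching series at 0 h and, in series A and C, a lower share of its maximum at 4 h than CCA1 and LHY. RVE1 in series A read 747, 38.8, 3.3, 4.6, 17.4 and 356.8 at the 6 times. RVE1 in series C read 739.9, 16.7, 1.2, 1.2, 15 and 200.8. RVE1 in series B read 743.7, 23.9, 6, 1.7, 32.7 and 225.7. The 3 series agreed at 0 h within an SD of 3.55 around 743.5, and the groups at 0 h and 20 h overlapped with no other time or with each other. At 4 h RVE1 stood at 5.19% of its maximum in series A and 2.26% in series C, where CCA1 still stood at 23.6% and 17.8% and LHY at 11.6% and 6.58%. At 16 h RVE1 read between 15 and 32.7, above each of its 8 h and 12 h signals, while CCA1 and LHY were still low in series A and C.

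Of the evening genes, GI stood high over 4, 8 and 12 h in series A and C. GI is a large plant-specific protein that links the clock to flowering. GI in series A read 1.7 at 0 h, 70 at 4 h, 297.6 at 8 h, 166.8 at 12 h, 16.4 at 16 h and 13.5 at 20 h. GI in series C read 9, 112.6, 401.3, 74.8, 9.5 and 17. GI in series B read 8.7, 8.2, 120.7, 411.1, 78.7 and 6, with the high value on the array labelled 12 h B. The 8 h group lay above the 4 h and 16 h groups and overlapped the 12 h group alone, while all 0 h and 20 h signals lay at 17 or below.

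PRR5 had a narrow peak. PRR5 in series A read 0.7, 6, 309.9, 36.6, 20.5 and 19.3 at the 6 times. PRR5 in series C read 8.7, 10.6, 410.9, 45.2, 19.3 and 40.2. PRR5 in series B read 2, 16.5, 35.3, 419.3, 5.1 and 22.7. In each series a single array held the peak, and the next highest stood at 11.8% of the maximum in series A and 11.0% in series C. The peak was labelled 8 h in series A and C and 12 h in series B.

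ELF4 and TOC1 shared a plateau over 8 and 12 h. ELF4 in series A read 0.9, 5, 341.3, 506.1, 88.3 and 24.1. ELF4 in series C read 3.1, 7.4, 465.1, 343.9, 51.1 and 26.1. ELF4 in series B read 4.7, 58.5, 362.9, 400.6, 1.9 and 27.1. All 6 arrays of 8 h and 12 h lay above all others, and the 2 groups overlapped each other. At 20 h the 3 series were close, at 25.8 ± 1.53 (SD, n = 3), well above the 2.9 ± 1.91 of 0 h.

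TOC1, a pseudo-response regulator that represses CCA1 and LHY, was the member with the smallest range. TOC1 in series A read 42.3, 35.5, 206.2, 277.9, 126.3 and 121.8. TOC1 in series C read 39.1, 51.2, 240.3, 251.5, 113.6 and 123.7. TOC1 in series B read 38.7, 103.8, 250.1, 261.6, 38.5 and 121.6. Its highest signal fell at 12 h in all 3 series, between 6.43 and 7.83 times its lowest. At 20 h it still stood at 43.8%, 46.5% and 49.2% of the maximum in series A, B and C, where ELF4 stood at 4.76%, 6.76% and 5.61% of its own.

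**Figure D2:**
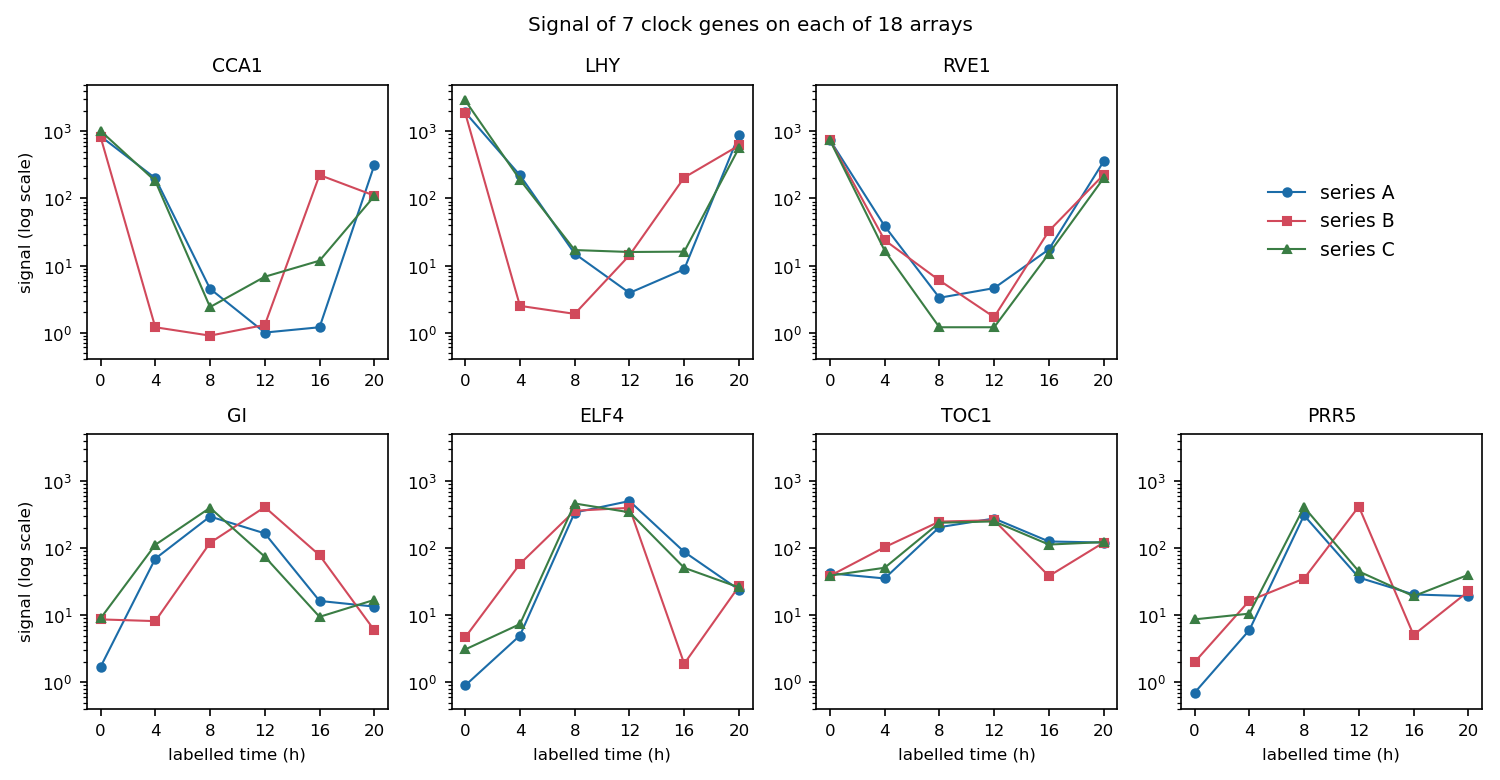
Signal (log scale) of each of the 7 clock genes against labelled time in h, with 1 point per array and lines joining the arrays of series A, B and C. CCA1, LHY and RVE1 are highest at 0 h in every series and GI, ELF4, TOC1 and PRR5 at 8 or 12 h. At 4 h CCA1 reads 1.2 in series B, against 200.1 in A and 181.7 in C, and at 8 h LHY reads 1.9 in series B, against 15 in A and 17 in C.

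The first test asked which members changed over the 6 times. All 7 passed the limma moderated F test over all probe sets, against 6.53% of the 22746 probe sets. RVE1 had an adjusted p of 7.23e-08, TOC1 of 0.000447, ELF4 of 0.000624 and LHY of 0.00207. GI had 0.00491, PRR5 0.00893 and CCA1 0.00893. The range of the time means was 8.04 for CCA1, 7.84 for LHY and 7.81 for RVE1 on the log2 scale, places 1, 2 and 3 among all probe sets tested with all arrays. ELF4 (6.82) was in place 6, PRR5 (5.46) in place 23, GI (5.23) in place 32 and TOC1 (2.69) in place 290. Without the 4 arrays of series B, CCA1, LHY and RVE1 were in places 5, 3 and 4, ELF4 in place 9, PRR5 in 15, GI in 37 and TOC1 in 490. These ranges rest on trough signals that no detection call supports. The median over the 7 was 6.82 and over all probe sets 0.64. With either series A or series C left out, the count was 1 of 7, RVE1 alone. Without the 4 arrays of series B that stood apart, all 7 passed, against 12.8% of all probe sets, with PRR5 at 8.68e-05 as the highest adjusted p.

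Between 12 h and 0 h the 2 groups of genes moved in opposite directions, and 10.9% of all probe sets were called. All 3 morning genes were lower at 12 h, against 5.44% of all probe sets, and all 4 evening genes were higher, against 5.43%. CCA1 averaged 3.03 ± 3.27 at 12 h and 898.6 ± 104.5 at 0 h (SD, n = 3 each), a log2 difference of -8.04 ± 1.49 (SE, limma adjusted p = 0.00197). LHY averaged 11.3 ± 6.49 at 12 h and 2230 ± 572 at 0 h, a difference of -7.65 ± 1.28 (adjusted p = 0.000851). For RVE1 the means were 2.50 ± 1.84 at 12 h and 743.5 ± 3.55 at 0 h, a difference of -7.81 ± 0.44 (adjusted p = 2.97e-08). The 3 estimates lay within their SEs of each other, and in none of these genes did a 12 h array reach a 0 h array.

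ELF4 had the largest estimate among the evening genes, and differences between genes were not tested. It averaged 416.9 ± 82.3 at 12 h and 2.90 ± 1.91 at 0 h, a log2 difference of 6.82 ± 0.95 (SE, limma adjusted p = 0.000161). GI (4.74 ± 0.91) and PRR5 (4.57 ± 0.95) were higher at 12 h as well, and TOC1 differed by 2.69 ± 0.36 (adjusted p = 0.000126). TOC1 stood at 263.7 ± 13.3 at 12 h and 40.03 ± 1.97 at 0 h, with no overlap. Without the 4 arrays of series B, PRR5 differed by 3.46 ± 0.58 and GI by 4.11 ± 0.58, and all 7 calls held, against 12.6% of all probe sets. Without series A the calls of GI (adjusted p = 0.142) and PRR5 (0.0847) were lost, and without series C those of CCA1 (0.0655) and LHY (0.0503). For the genes with a low 0 h or 12 h signal the size depends on the offset, as with an offset of 7.1 CCA1 differed by -6.52 and ELF4 by 5.41.

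The same directions were found at 8 h, where 10.7% of all probe sets were called. All 3 morning genes were lower at 8 h than at 0 h, against 5.13% of all probe sets, and all 4 evening genes higher, against 5.52%. PRR5 averaged 252.0 ± 194.4 at 8 h and 3.8 ± 4.29 at 0 h, a log2 difference of 5.46 ± 0.95 (SE, limma adjusted p = 0.00118). GI averaged 273.2 ± 141.9 at 8 h and 6.47 ± 4.13 at 0 h, a difference of 5.23 ± 0.91 (adjusted p = 0.00115). The wide SDs at 8 h came with the array labelled 8 h B, which held 35.3 for PRR5 and 120.7 for GI. Without the 4 arrays of series B, PRR5 differed by 6.56 ± 0.58 and GI by 5.73 ± 0.58, with 7 of 7 called against 12.2% of all probe sets. Without series A, GI (adjusted p = 0.105) and PRR5 (0.0931) lost the call, and without series C, CCA1 did (0.0861). The 8 h and 12 h comparisons share the 0 h arrays.

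Between 20 h and 8 h, 4 members were called, against 3.26% of all probe sets. LHY and RVE1 were higher at 20 h, against 1.82% of all probe sets, and GI and ELF4 lower, against 1.45%. RVE1 averaged 261.1 ± 83.8 at 20 h and 3.50 ± 2.41 at 8 h, a log2 difference of 5.93 ± 0.44 (SE, limma adjusted p = 1.62e-06). LHY averaged 689.0 ± 170.3 at 20 h and 11.3 ± 8.2 at 8 h, a difference of 6.15 ± 1.28 (adjusted p = 0.013). ELF4 differed by -3.85 ± 0.95 (adjusted p = 0.0345) and GI by -4.31 ± 0.91 (adjusted p = 0.0139). CCA1 (5.53 ± 1.49, adjusted p = 0.054), PRR5 (-2.62 ± 0.95, 0.175) and TOC1 (-0.91 ± 0.36, 0.228) missed the threshold with all arrays, although for CCA1 and TOC1 no 20 h array overlapped an 8 h array. The count of 4 became 1 with either series A or series C left out, 2 without 8 h A, 2 without 8 h C, 1 without 20 h A and 2 without 20 h B. Without the 4 arrays of series B it was 7, against 6.37% of all probe sets, with PRR5 at -3.72 ± 0.58 and TOC1 at -0.86 ± 0.16.

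Between 16 h and 4 h no member was called with all arrays (limma, adjusted p = 1 for each), and 0 of 7 had an unadjusted p below 0.05. No probe set at all was called, 0% of 22746, with 391 at an unadjusted p below 0.05. The 2 arrays of series B in this comparison are among those that stood apart. In series A and C, CCA1 read 1.2 and 11.8 at 16 h, against 200.1 and 181.7 at 4 h. In series B it read 223.6 at 16 h, against 1.2 at 4 h. Without the 4 arrays of series B, 5 of 7 members were called, against 4.42% of all probe sets. The log2 difference was then -5.14 ± 0.74 for CCA1, -3.98 ± 0.45 for LHY and -2.72 ± 0.64 for GI, all lower at 16 h, while ELF4 (3.25 ± 0.45) and TOC1 (1.47 ± 0.18) were higher (SE). RVE1 (-0.63 ± 0.47) and PRR5 (1.20 ± 0.64) were not called. In series B alone each of CCA1, LHY, GI, ELF4 and TOC1 differed in the opposite direction.

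**Figure D3:**
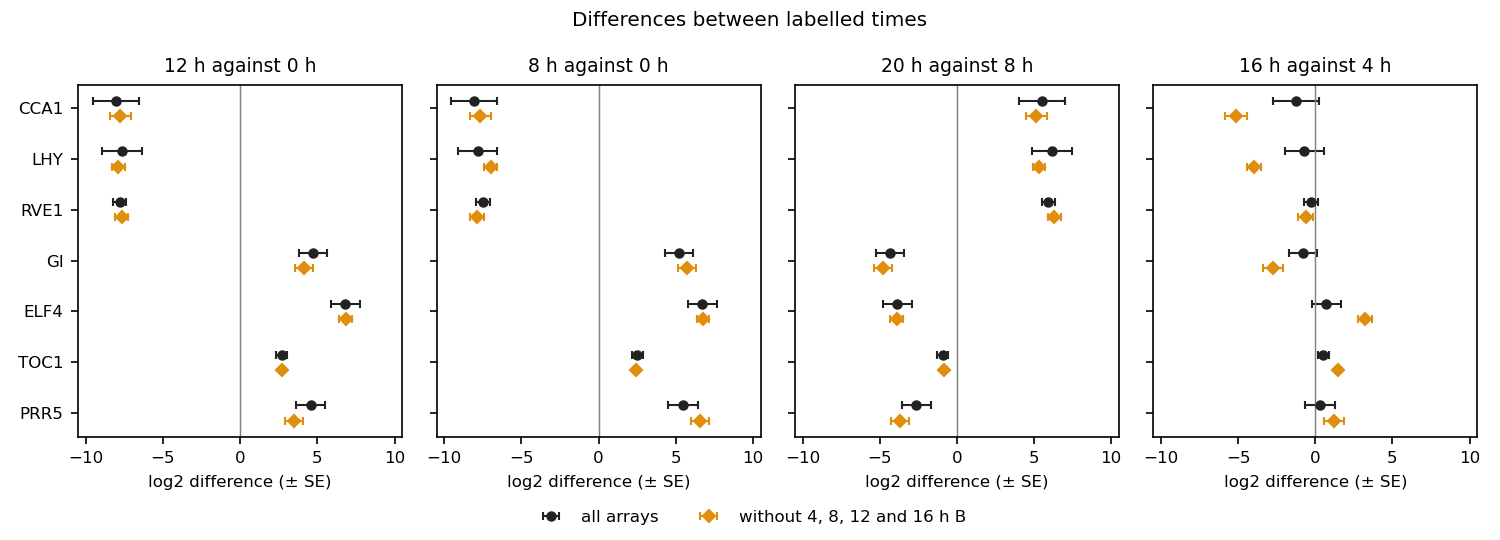
Log2 differences between labelled times (± SE, limma) for the 7 clock genes in 4 comparisons, later time minus earlier time, with all 18 arrays (black circles) and without the arrays labelled 4, 8, 12 and 16 h B (orange diamonds). Every gene keeps its direction at 12 h and 8 h against 0 h, with PRR5 at 4.57 with all arrays and 3.46 without the 4 at 12 h, while at 16 h against 4 h CCA1 is at -1.22 with all arrays and at -5.14 without the 4.

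The 4 h steps show where each gene moved. With all arrays 7 of the 42 tests of a member over a step were called, against 0.599% of such tests over all probe sets. They were the decline at 4 h against 0 h of LHY (-5.35 ± 1.28) and RVE1 (-4.84 ± 0.44), where 2.71% of all probe sets were called, and at 8 h against 4 h the further decline of RVE1 (-2.65 ± 0.44) and the gains of ELF4 (4.73 ± 0.95) and TOC1 (1.99 ± 0.36), where 0.391% were. The other 2 were the return of RVE1 at 16 h against 12 h (2.70 ± 0.44, with 0.273% of all probe sets called) and at 20 h against 16 h (3.56 ± 0.44, with 0.0176%). With the series as a block ELF4 lost its step (limma adjusted p = 0.0549). No member was called at 12 h against 8 h (0 at an unadjusted p below 0.05), where 0% of all probe sets were (265 at an unadjusted p below 0.05), or at 0 h against 20 h (4 at an unadjusted p below 0.05), where 0.198% were. The count of 7 became 1 with either series A or series C left out, 17 without series B, 12 without 4 h B, and 4 each without 4 h A, without 8 h A and without 8 h C.

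Without the 4 arrays of series B, 21 of the 42 were called, against 2.28% over all probe sets. GI was then the sole evening gene called higher at 4 h than at 0 h (3.79 ± 0.58, limma adjusted p = 0.00136), and LHY and RVE1 were lower, 3 members against 7.2% of all probe sets. At 8 h against 4 h, CCA1 (-5.44 ± 0.74), LHY (-3.60 ± 0.45) and RVE1 (-3.07 ± 0.47) were lower, and ELF4 (5.79 ± 0.45), PRR5 (5.30 ± 0.64) and TOC1 (2.35 ± 0.18) higher, 6 members against 2.47%. At 12 h against 8 h PRR5 alone was called, with a difference of -3.10 ± 0.64 (adjusted p = 0.0419), against 0.827%. GI, ELF4, TOC1 and RVE1 were called at 16 h against 12 h, RVE1 higher and the others lower, against 1.43%. At 20 h against 16 h the 3 morning genes were higher, against 0.426%. At 0 h against 20 h LHY was higher (1.69 ± 0.36) and ELF4 (-2.88 ± 0.37), TOC1 (-1.59 ± 0.15) and PRR5 (-2.84 ± 0.52) lower, against 1.35%.

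A cosine with a period of 24 h was fitted to each gene to give a peak hour. All 7 members had such a component by the limma F test, against 12.5% of all probe sets, and 1 day of sampling cannot show that it repeats. RVE1 peaked at 22.4 ± 0.22 h, LHY at 22.5 ± 0.52 h and CCA1 at 22.8 ± 0.56 h (SE). GI peaked at 9.72 ± 0.53 h, PRR5 at 10.8 ± 0.89 h, ELF4 at 10.9 ± 0.60 h and TOC1 at 11.6 ± 0.76 h. Within each class, neighbours in this order differed by less than the sum of their SEs with all arrays. Without the 4 arrays of series B all 7 had it as well, against 16.8%. A fitted peak is not the time of the highest array, which was 0 h for all 3 morning genes. The call of PRR5 rested on single arrays, and its adjusted p of 0.0184 was 0.0602 without 0 h A, 0.0524 without 0 h B and 0.0555 without 12 h B. It was 0.22 without series A, 0.0814 without series B and 0.0717 without series C, and TOC1 had 0.116 without series A and 0.11 without series C.

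The order of the peaks was shared by series A and C and was another in series B. In series A it ran GI (9.47 h), PRR5 (10.95 h), ELF4 (12.03 h) and TOC1 (12.86 h). In series C the same genes peaked at 7.78, 10.21, 11.5 and 12.16 h. In series B the order was ELF4 (8.66 h), TOC1 (9.35 h), PRR5 (10.97 h) and GI (11.63 h). Among the morning genes RVE1 was steady, at 22.48, 22.37 and 22.32 h in series A, B and C. Its means over series A and C were 27.75 at 4 h and 16.2 at 16 h, and 2.25 at 8 h and 2.90 at 12 h. A gene with such similar values at these times can show little of how the 4 arrays of series B stood apart. CCA1 peaked at 0.14 h in series A and 23.67 h in series C, after RVE1, but at 20.45 h in series B, before it, and LHY at 23.69, 23.58 and 20.26 h in series A, C and B. Without the 4 arrays of series B, RVE1 peaked at 22.5 ± 0.24 h, LHY at 23.6 ± 0.25 h and CCA1 at 0.011 ± 0.302 h. GI then peaked at 8.74 ± 0.48 h, PRR5 at 11.03 ± 1.02 h, ELF4 at 11.95 ± 0.40 h and TOC1 at 12.77 ± 0.55 h (SE). In that fit RVE1 and LHY, and likewise GI and PRR5, lay further apart than the sum of their SEs. Differences between peaks were not tested. The peak hours within 1 series rest on 6 arrays each and were not tested.

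**Figure D4:**
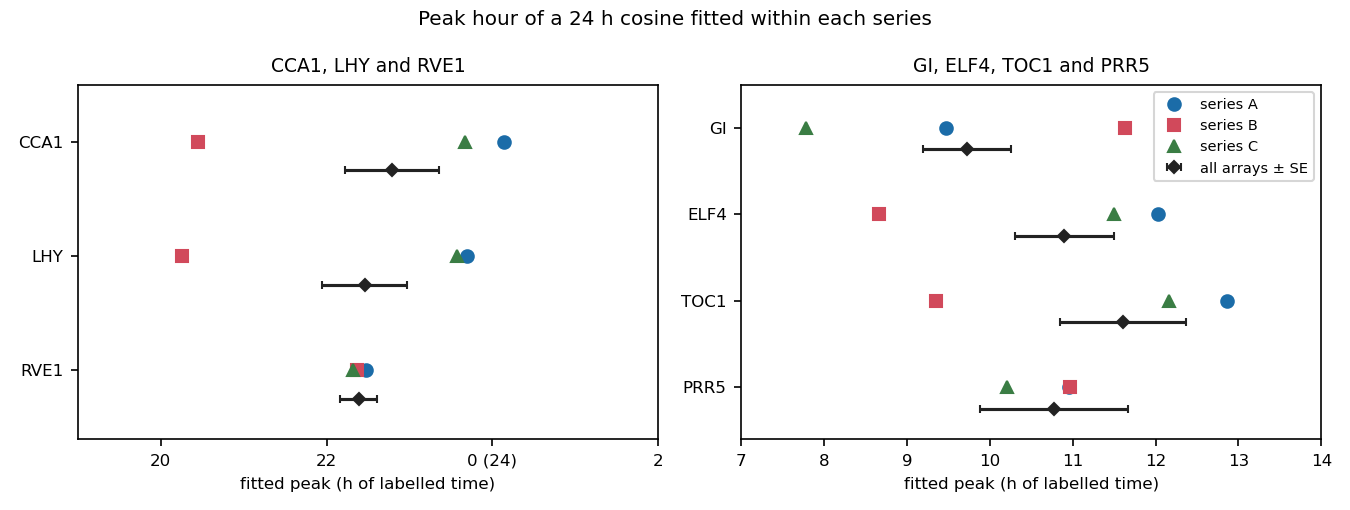
Fitted peak hour of a 24 h cosine for each clock gene within series A, B and C (coloured symbols, labelled time in h) and with all arrays ± SE (black diamonds). The fitted peaks of the 3 series lie close together for RVE1 (22.32 to 22.48 h) and, separately, for PRR5 (10.21 to 10.97 h). For PRR5 the highest array was nevertheless labelled 8 h in series A and C and 12 h in series B. CCA1 and LHY of series B lie near 20 h. GI, ELF4 and TOC1 of series B lie outside the span of A and C (the PRR5 points of A and B coincide).

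How alike the members were did not depend on the time labels, since each array gives all 7 genes at once. Over the 18 arrays, Pearson's r of log2 signals was 0.97 between CCA1 and LHY and 0.97 between ELF4 and TOC1. The r of RVE1 was 0.85 with CCA1 and 0.87 with LHY. GI was the least tied to its class, at 0.53 with TOC1, 0.63 with ELF4 and 0.72 with PRR5, while its r with RVE1 was -0.82. CCA1 and ELF4 stood at -0.91. These are descriptions of 18 arrays that share 6 times of day and 3 courses.

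The genes with the most similar pattern were sought among 5999 probe sets with 1 named gene and a mean at or above the median probe set. Closest to CCA1 were AFR, an F-box protein of far-red light signalling (r = 0.98), AT4G17840 (0.97) and RVE5 (AT4G01280, 0.96), a MYB factor of the CCA1 family. Closest to LHY were AT3G47295 (0.97), AFR (0.96) and the protein kinase gene APK1A (0.95). For RVE1 they were AT1G33110 (0.98), AAPT2, an enzyme of phospholipid synthesis (0.97), and AT1G47530 (0.96). DPE1, the plastid disproportionating enzyme of starch breakdown (0.98), AT2G21130 (0.98) and AT1G07050 (0.97) were closest to ELF4. AT2G21130 (0.95), PWD, which phosphorylates starch (0.95), and AT5G49900 (0.95) were closest to TOC1. Those of GI were AT2G45590 (0.95), AT3G56330 (0.95) and AT1G27930 (0.95), and those of PRR5 were AT3G53990 (0.96), AT5G62360 (0.94) and AT1G53035 (0.93).

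Of 38 other clock genes listed by their textbook role, 7 had a named probe set here. The gene table tied no probe set to any of the rest alone, and it also lacks 6 of the 7 genes described above. The listed genes that were read therefore do not stand for the rest of the clock. RVE5 and COR28 (AT4G33980) changed over the day, 2 of 7 against 6.53% of all probe sets, and the median range of the 7 was 0.50 against 0.64 over all. COR28, which with COR27 joins the clock to cold responses, averaged 99.1 ± 63.6 at 12 h and 0.567 ± 0.289 at 0 h (SD, n = 3), with limma adjusted p = 0.0121 over the day. RVE5 averaged 44.8 ± 3.52 at 12 h and 77.5 ± 6.68 at 0 h, a range of 0.78 on the log2 scale (adjusted p = 0.0442). RVE5 was thus low when CCA1 was low, with a far smaller swing. The list's count was 0 with either series A or series C left out, 3 without 4 h B or without 16 h B, and 1 without any one of 15 single arrays, where RVE5 was lost. COR27 missed the threshold with all arrays (adjusted p = 0.166) and passed without the 4 arrays of series B (3.13e-07). Its signals at 4 h spanned 0.9 to 1.5 over series A and C, and its highest at that time was 74.8, in series B. RVE6, FIO1, TIC and XCT had ranges of 0.39 to 0.50 and were not called (adjusted p = 0.74 to 0.996).

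Of 15 textbook outputs of the clock, CDF5 alone had a named probe set. CDF5, a DOF factor that represses flowering, changed over the day (range 3.63, limma adjusted p = 0.00359). It averaged 8.23 ± 3.83 at 12 h and 98.4 ± 8.16 at 0 h (SD, n = 3), the same direction as CCA1 and LHY. At 20 h it was still at 7.60 ± 4.59, where the 3 morning genes stood above their 8 h and 12 h signals in every series. The call was lost with either series A or series C left out.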

How the data were processed

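Total RNA of 18 rosette samples (6 times, 3 courses) was hybridised to Affymetrix ATH1 arrays. The deposited values are signal intensities that the authors made with MAS5, per the submitters' processing notes (the version is not given in the sources used here). MAS5 scales each array to a common trimmed mean, and a low signal is noisy on a log scale. The table holds no detection calls. Of 22810 probe sets, 64 controls were left out and 22746 tested. Values were analysed as log2(signal + 1.1), where 1.1 is the 10th percentile of all values, with limma 3.58.1 in R 4.3.3 (lmFit, eBayes with a trend). Tests were an F test over 6 times, an F test of a 24 h cosine, and contrasts between times, each adjusted by Benjamini-Hochberg over all probe sets and called at 0.05. The tests were checked on simulated data with independent noise. The simulation held no series effect and no arrays that stand apart, so the check does not cover these.

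Samples were grouped by labelled time. The replicate letter marks courses grown separately, per the design text, so it pairs arrays. Deviations from time means had a mean correlation of 0.174, 0.161 and 0.328 within series A, B and C, and -0.109 between series. The block is an alternative.

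The members and gene lists were chosen with earlier results of these data known. Named genes are the 7 members, the measured genes of the lists of clock genes, clock outputs, leaf and root markers, and for each member the 3 genes with the highest and the 1 with the lowest Pearson r. Gene names come from the platform's gene table, updated by locus in a RefSeq table. Alternatives were another offset or none, equal array medians, quantile normalization, a filter on dim probe sets, no variance trend, the block, and leaving out arrays or series. No genome or sequence table was used here. The number of arrays limits the precision.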

Additional observations from a re-analysis of the deposited data

How the results depend on the processing

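No gene changed direction in a called result under any alternative run. With all 18 arrays 7 of 7 members changed over the day, 7 had a 24 h component, and 7, 7, 4 and 0 were called at 12 h against 0 h, 8 h against 0 h, 20 h against 8 h and 16 h against 4 h. With the series as a replicate block these counts were the same, and of the 7 called steps 6 held. The step count was 3 with no offset, 4 without a variance trend, 17 without 4 h B and 16 h B, and 21 without the 4 arrays of series B. At 16 h against 4 h it was 4 without 4 h B and 16 h B and 5 without the 4 arrays, and at 20 h against 8 h 7 without the 4. Other clock genes numbered 1 without a trend. Without dim probe sets they numbered 1, and clock outputs 0. That filter dropped probe sets with a mean below the 40th percentile, and a dropped gene was counted as not called. By their signals COR28 and CDF5 fell below this cut and were not tested there. The counts without dim probe sets therefore do not show that the calls of COR28 and CDF5 failed. ELF4 at 20 h against 8 h missed the threshold with no offset (limma adjusted p = 0.0955) and without a trend (0.0666).

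Leaving out 1 array or 1 series gave 1 to 7 members over the day, 5 to 7 with a 24 h component, 5 to 7 at 12 h against 0 h, 5 to 7 at 8 h against 0 h, 1 to 7 at 20 h against 8 h, 0 to 5 at 16 h against 4 h, and 1 to 17 steps. Other clock genes ranged over 0 to 3 and clock outputs over 0 to 1. The likeness of AT2G01720 to LHY was -0.79 with equal array medians and -0.93 as deposited. Low signals limit the size of the differences, since 28 of 126 member values lay below 7.1. The planned motif search in promoters was not run.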

Other observations

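The gene with the lowest Pearson r to each member over the 18 arrays gives the mirror of its course, as a description with no test. For CCA1 it was AT4G16146 (-0.94), for LHY AT2G01720 (-0.93) and for RVE1 COR15B, a cold-regulated chloroplast protein (-0.98). For ELF4 it was LYC, the lycopene cyclase of carotenoid synthesis (-0.96), for GI AT4G37560 (-0.95), for TOC1 AT2G26690 (-0.94) and for PRR5 AT3G49220 (-0.91).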
